A study of Mus musculus with 2 samples.

Results

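Open chromatin at the starts of long noncoding RNA (lncRNA) genes was described in DNaseI-seq peak lists of NMuMG, a mouse cell line of mammary epithelium from healthy tissue. In this assay nuclei are cut lightly with DNaseI and the places cut most are called as peaks. A peak was taken when it lay within 1000 bp of the start of an annotated lncRNA transcript and over 1000 bp from every protein-coding transcript start. This gave 252 of 17784 distinct vehicle peaks (1.42%) and 303 of 22600 distinct TGFβ 2 h peaks (1.34%). They lay in the windows of 332 lncRNA genes, and 317 genes remained when each peak was given to the nearest start. Before coding starts were excluded, 922 vehicle and 971 TGFβ 2 h peaks touched an lncRNA window, so 670 and 668 of them were left out because a protein-coding start was close by. Each peak was placed in a class by position alone. A shared peak overlapped a peak of the other list by at least 1 bp, a vehicle-only or TGFβ-only peak overlapped none, and either word says in which list a peak was called, not that signal was absent from the other condition.

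Serum and insulin were withdrawn from all cells 6 h beforehand. The vehicle group then received carrier solution and the TGFβ 2 h group received TGFβ1 at 5 ng/ml, each for 2 h, and nuclei were digested with 75 units of DNaseI for 5 min. With 1 peak list per condition, replicate error could not be estimated and the conditions were not tested against each other. Intervals given below are Wilson 95% intervals for shares and exact binomial 95% intervals for ratios of counts, and they cover the counting of peaks only.

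The cell type was checked against marker genes by peaks at their coding starts. Of 12 epithelial genes, 5 had a start peak in each list (Cdh1, Krt8, Krt18, Krt19 and Ocln), while Epcam, Krt7, Cldn3, Cldn4, Cldn7, Esrp1 and Grhl2 had none in either. None of 5 blood, 3 endothelial or 3 neural genes had one, although Spi1 had no coding transcript under that name in the annotation. Of 5 fibroblast or mesenchymal genes, Vim, Cdh2 and Col1a1 had a start peak in both lists.

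An lncRNA is a long transcript that is not translated into a protein, and most are made by RNA polymerase II from promoters that DNaseI can cut much as it cuts the promoters of coding genes. Some lncRNA promoters are CpG islands used in nearly every cell, such as those of the small nucleolar RNA host genes, and others lie in CpG-poor DNA that resembles enhancers and is used in few cell types. AP-1, a dimer of FOS and JUN proteins, binds enhancers of the latter kind in epithelial cells, and TGFβ acts through SMAD proteins that often bind beside AP-1.

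Sequences of 6 peaks are printed to show these kinds of start, each around the peak midpoint and 5′ to 3′ on the strand of the lncRNA (mm9). The first pair are 200 bases each from TGFβ-only peaks at the score ceiling that hold an AP-1 string, TGACTCA or TGAGTCA, which is in capitals. They come from Gm15271 at chr10:24167110-24167309 on the plus strand and from Gm11476 at chr2:167378459-167378658 on the plus strand.
Gm15271: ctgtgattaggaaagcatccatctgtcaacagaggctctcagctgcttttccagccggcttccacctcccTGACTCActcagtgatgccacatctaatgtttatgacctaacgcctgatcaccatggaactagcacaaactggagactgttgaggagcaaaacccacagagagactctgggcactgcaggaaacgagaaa
Gm11476: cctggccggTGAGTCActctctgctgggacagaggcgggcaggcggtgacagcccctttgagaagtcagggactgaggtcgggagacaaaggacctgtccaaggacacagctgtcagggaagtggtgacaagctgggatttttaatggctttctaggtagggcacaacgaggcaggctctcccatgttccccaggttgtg
The other 4 are 100 bases each, with every CpG dinucleotide in capitals, to show starts with more CpG than the first pair. They are the TGFβ-only peak of Nespas (now Gnasas1) at chr2:174120830-174120929 on the minus strand, the vehicle-only peak of Airn at chr17:12934301-12934400 on the plus strand, the vehicle-only peak of 2810008D09Rik (now Snhg20) at chr11:116937987-116938086 on the plus strand and the shared peak of 2700023E23Rik (now Dancr) at chr5:74489106-74489205 on the plus strand.
Nespas: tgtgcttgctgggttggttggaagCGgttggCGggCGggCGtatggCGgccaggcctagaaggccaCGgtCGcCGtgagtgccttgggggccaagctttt
Airn: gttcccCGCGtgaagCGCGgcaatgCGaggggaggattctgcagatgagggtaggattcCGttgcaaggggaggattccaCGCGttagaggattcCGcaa
2810008D09Rik: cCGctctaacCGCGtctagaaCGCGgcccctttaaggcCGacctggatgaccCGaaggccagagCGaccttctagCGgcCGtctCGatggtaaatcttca
2700023E23Rik: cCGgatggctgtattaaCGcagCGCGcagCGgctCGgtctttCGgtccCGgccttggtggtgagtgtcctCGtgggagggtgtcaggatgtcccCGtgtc
The last 4 held 8, 9, 11 and 10 CpG in 100 bases, and the first pair held 3 and 5 in 200 bases. Over the wider window by which CpG content is scored below, the Airn peak, at 0.594, fell just under the limit for a CpG-rich peak.

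Most lncRNA start peaks were called under both conditions. In the vehicle list 45 of 252 (17.9%, interval 13.6 to 23.1%) had no partner, against 17.6% of all vehicle peaks. In the TGFβ 2 h list 88 of 303 (29.0%, interval 24.2 to 34.4%) had no partner, against 33.7% of all TGFβ 2 h peaks. Both shares were thus near the background of the whole lists. They lay between those of peaks at protein-coding starts, 6.29% for vehicle and 8.01% for TGFβ 2 h, and those of peaks at no annotated start, 31.6% and 55.3%. The 88 TGFβ-only peaks were 1.96 times the 45 vehicle-only peaks (interval 1.35 to 2.87), no more than in the whole lists, where 7611 and 3128 peaks gave a ratio of 2.43. The ratio was 1.33 at protein-coding starts and 2.74 at no annotated start. When the longer TGFβ 2 h list was cut to the length of the vehicle list by score, the numbers were 55 and 55, a ratio of 1.00. Classes were called anew after this cut, so a vehicle peak whose partner was cut away counted as vehicle-only.

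**Figure D1:**
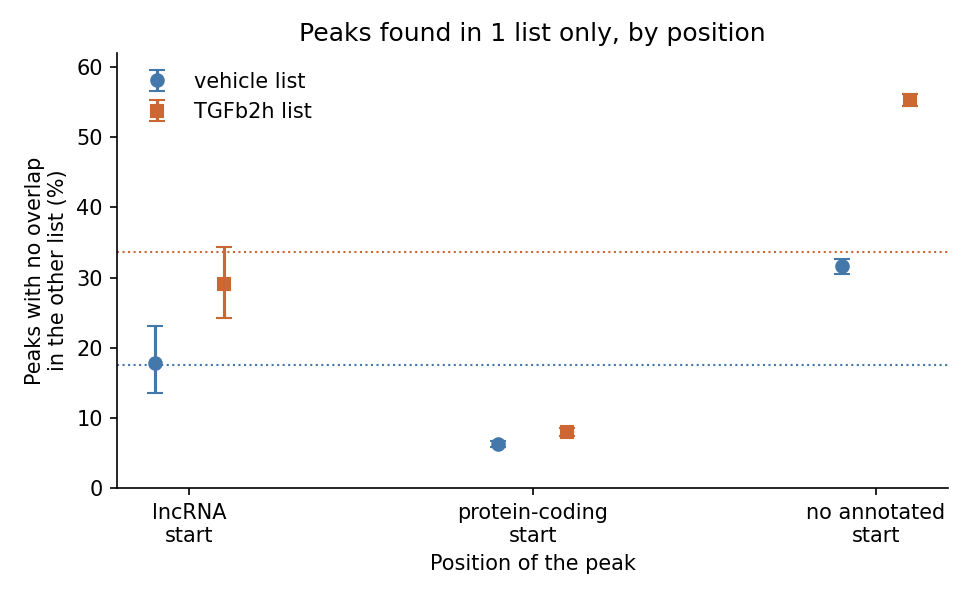
Share of peaks with no overlapping peak in the other list (y axis, percent) for peaks at lncRNA starts, at protein-coding starts and at no annotated start. Points are shares, bars are Wilson 95% intervals and dotted lines are the shares of all peaks of each list, with circles and blue for vehicle and squares and orange for TGFβ 2 h. Peaks at lncRNA starts (17.9% and 29.0%) sit near the dotted lines, between the other kinds.

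The members were mixed in their CpG content. CpG content was the observed over the expected number of CpG in the 500 bp at the peak midpoint, and a peak with a value of at least 0.6 is called CpG-rich. Of lncRNA start peaks, 124 of 252 in the vehicle list (49.2%) and 124 of 303 in the TGFβ 2 h list (40.9%) were CpG-rich, against 86.4% and 85.0% at protein-coding starts and 8.30% and 6.02% at no annotated start. Among CpG-rich members 13 of 124 were vehicle-only (10.5%, interval 6.23 to 17.1%), and 13 of 124 were TGFβ-only, which gave the same share. Among CpG-poor members 32 of 128 were vehicle-only (25.0%, interval 18.3 to 33.2%) and 75 of 179 were TGFβ-only (41.9%, interval 34.9 to 49.2%). The ratio of TGFβ-only to vehicle-only peaks was therefore 1.00 (interval 0.427 to 2.34) in CpG-rich DNA and 2.34 (interval 1.53 to 3.67) in CpG-poor DNA. Peaks elsewhere split the same way, with ratios of 1.13 in CpG-rich and 1.55 in CpG-poor DNA at protein-coding starts, 1.49 and 2.79 at no annotated start, and 1.22 and 2.64 over all peaks, and the 2 intervals at lncRNA starts overlapped. At equal list length the ratio in CpG-poor DNA was 1.15, from 47 and 41 peaks, and with processed_transcript genes left out it was 1.47, from 22 and 15. In CpG-rich DNA the ratio was 0.571 at equal list length, from 8 and 14 peaks, and 0.636 when deposited rows were counted. With both lists first cut at their own median score it was 0.625, from 10 and 16 peaks. Classes were called anew after either cut, so a shared peak whose partner was cut away counted there as unshared.

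In finer steps of CpG content the TGFβ-only share of lncRNA start peaks was 48.3% (42 of 87) under 0.3, 35.9% (33 of 92) from 0.3 to 0.6, 14.6% (13 of 89) from 0.6 to 0.9 and 0 of 35 at 0.9 or more, a count of 0 that allows a share of up to 8.57%. The vehicle-only share went from 31.0% (18 of 58) through 20.0% (14 of 70) and 13.0% (12 of 92) to 3.13% (1 of 32). Both lists thus had their unshared members mainly at low CpG content. In the lowest step the TGFβ-only share at lncRNA starts (interval 38.1 to 58.6%) met that at protein-coding starts, which was 46.9% (interval 42.2 to 51.6%). In the next steps it lay above that at protein-coding starts with separate intervals, 26.8 to 46.1% against 18.9 to 23.8% from 0.3 to 0.6 and 8.74 to 23.4% against 4.93 to 6.15% from 0.6 to 0.9. It was below the shares at no annotated start in every step, with overlapping intervals from 0.6 up.

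**Figure D2:**
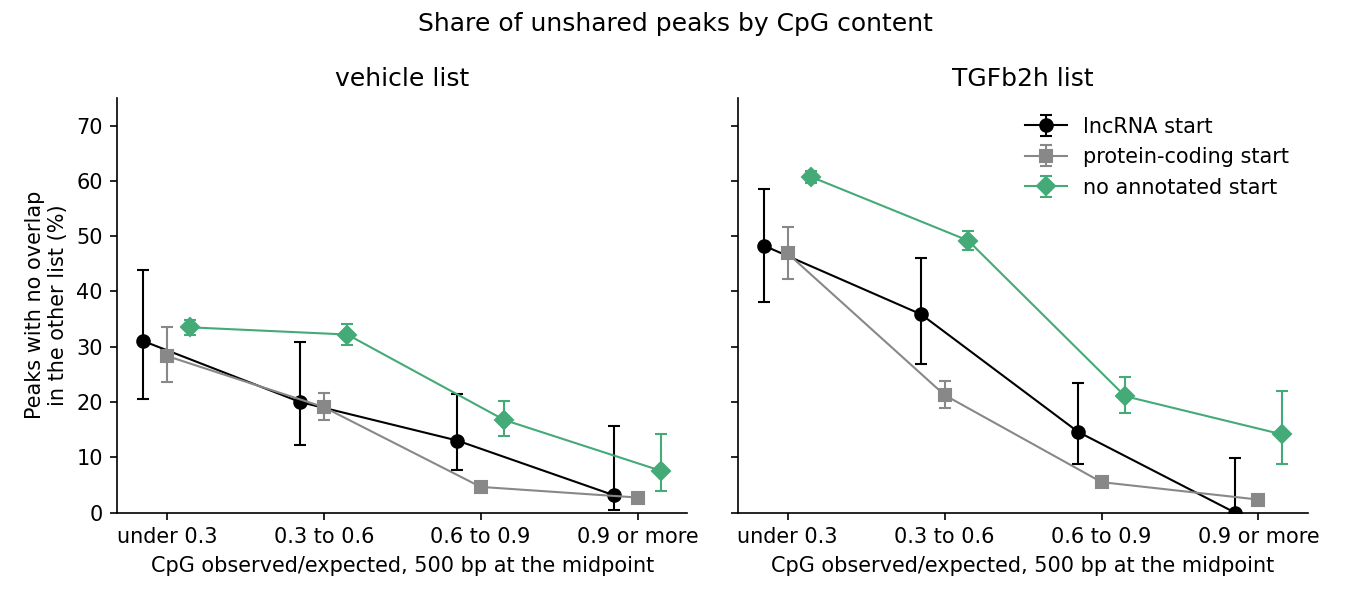
Share of peaks with no partner in the other list (y axis, percent) by CpG observed over expected (x axis, 4 steps), for the vehicle list on the left and the TGFβ 2 h list on the right. Black circles are peaks at lncRNA starts, grey squares peaks at protein-coding starts and green diamonds peaks at no annotated start, with Wilson 95% intervals. For lncRNA starts the share runs from 31.0% to 3.13% in the vehicle list and from 48.3% to 0% in the TGFβ 2 h list.

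Score moved together with class and CpG content. The deposited score ran from 540 to a ceiling of 1000 and ranks peaks within a list only. At the ceiling stood 132 of 252 vehicle members (52.4%) and 128 of 303 TGFβ 2 h members (42.2%), and only 2 of the former and 6 of the latter were unshared. Below the ceiling the vehicle-only share was 32.4% (12 of 37) in CpG-rich and 37.3% (31 of 83) in CpG-poor members, and these intervals, 19.6 to 48.5% and 27.7 to 48.1%, overlapped widely. Below the ceiling the TGFβ-only share was 25.0% (13 of 52, interval 15.2 to 38.2%) in CpG-rich and 56.1% (69 of 123, interval 47.3 to 64.6%) in CpG-poor members. The part of score in the CpG pattern was not tested.

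By annotation, 2952 lncRNA genes had at least 1 start over 1000 bp from any coding start. Of these 2952 genes, 327 (11.1%, interval 9.99 to 12.3%) had a member peak in either list, 205 in both, 39 in the vehicle list alone and 83 in the TGFβ 2 h list alone. The annotation sorts lncRNA genes into lincRNA and processed_transcript. The first name stands for intergenic RNAs, but some of its genes here, such as A530020G20Rik in Slc44a3, lay inside a coding gene on the opposite strand. A member peak in either list was found at 162 of 751 lincRNA genes (21.6%) and at 165 of 2201 processed_transcript genes (7.50%). Protein-coding genes had a start peak more often, 45.1% of them in the vehicle list and 45.7% in the TGFβ 2 h list.

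The TGFβ-only share also differed between these gene types. It was 17.5% (27 of 154, interval 12.3 to 24.3%) for peaks at lincRNA starts and 40.9% (61 of 149, interval 33.4 to 49.0%) for peaks at processed_transcript starts. The vehicle-only shares were closer, 14.7% (21 of 143) and 22.0% (24 of 109), with overlapping intervals. The processed_transcript peaks were also less often CpG-rich, 26.8% against 54.5% in the TGFβ 2 h list, and the part of CpG content in this difference was not tested. With lincRNA genes alone the TGFβ-only share of all members was 17.8% and the ratio of TGFβ-only to vehicle-only peaks was 1.33.

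Peaks whose lncRNA lay inside a coding gene on the opposite strand were TGFβ-only in 31 of 67 cases (46.3%) and vehicle-only in 16 of 50 (32.0%). Peaks whose lncRNA started over 10 kb from a coding start, and outside coding genes, were TGFβ-only in 37 of 166 cases (22.3%) and vehicle-only in 18 of 143 (12.6%). Where the peak covered the annotated start itself, 38 of 198 were TGFβ-only (19.2%) and 25 of 185 vehicle-only (13.5%). Where it only lay nearby, these shares were 47.6% (50 of 105) and 29.9% (20 of 67). Shared peaks covered the start in 77.3% of cases in the vehicle list and 74.4% in the TGFβ 2 h list, vehicle-only peaks in 55.6% and TGFβ-only peaks in 43.2%. Width moved with this difference, since the median widths were 475 bp for vehicle-only against 830 bp for shared vehicle peaks and 436 bp for TGFβ-only against 697 bp for shared TGFβ 2 h peaks. The midpoint lay within 250 bp of the start in 51.1% of vehicle-only and 62.3% of shared vehicle peaks, and in 48.9% of TGFβ-only and 63.3% of shared TGFβ 2 h peaks, with overlapping intervals in both lists. The part of width was not tested.

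Among lncRNA genes known by name, most of those with a member peak had it in both lists. Malat1, an abundant nuclear RNA, had 2 shared peaks in each list, of which the one over the start was 219 bp wide with vehicle and 240 bp with TGFβ, both at a score of 1000. The small nucleolar RNA host genes Snhg4, Snhg5, Snhg7, Snhg12 and Snhg15 (annotated as Gm11974) each had 1 shared peak. So did Dancr, Oip5os1 (1700020I14Rik), Pvt1, which lies beside Myc, Trp53cor1 (Gm16197), which lies beside Cdkn1a, and Mir17hg, the host of the miR-17 cluster. Dleu2, the host of the miR-15a and miR-16-1 hairpins, had 3 shared peaks in each list, the most of any member gene. Mir22hg (2210403K04Rik), the host of miR-22, had a vehicle peak of 1717 bp that faced TGFβ 2 h peaks of 804 and 492 bp. On chromosome X, Jpx (Enox), Firre (6720401G13Rik) and Ftx (B230206F22Rik) had shared peaks, 2 in each list for Ftx. The only member at Xist, the RNA that silences an X chromosome, was a shared TGFβ 2 h peak centred 1430 bp downstream of a start with a score of 676. It overlapped a vehicle peak that fell outside the window.

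Scores of these shared peaks differed between the lists in both directions. The Pvt1 peak had a score of 1000 and a width of 555 bp with vehicle and a score of 656 and a width of 404 bp with TGFβ. The Mir17hg peak had a score of 591 with vehicle and 992 with TGFβ at nearly the same width, 697 and 704 bp. Scores are not comparable between lists, so these values give each peak's place in its own list.

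Of the listed known genes, 2 had member peaks of an unshared class alone, and both start inside an imprinted coding gene on the opposite strand. Airn, which is transcribed from the paternal copy and silences Igf2r in cis, had a vehicle-only peak of 295 bp from 61 bp upstream to 233 bp downstream of a start (chr17:12934203-12934497, score 613). Nespas, in the Gnas locus, had a TGFβ-only peak of 452 bp from 215 bp upstream to 236 bp downstream of a start (chr2:174120654-174121105, score 789). Both scores were below the ceiling.

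No peak lay at any start of Neat1, Tsix, H19, Igf2as, Meg3, Rian, Mirg, Mir100hg, Dnm3os, Miat, Hotair, Hottip, Halr1, Rmst, Fendrr, Sox2ot, Dlx6os1, Six3os1, Dnmt3aos, Pax6os1 or Nctc1, 21 genes in all, many of which act in embryonic patterning, neural tissue or imprinting. A further 8 genes, Gas5, Snhg1, Snhg3, Tug1, Hotairm1, Gata6os, Foxd2os and Zeb2os, had peaks at a start, all of which were left out because a coding start lay within 1000 bp.

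Of the 8 TGFβ-only members with the highest score, 7 were CpG-poor, 7 had their lncRNA start over 10 kb from a coding start and 3 held an AP-1 string in the 200 bp at the midpoint. In the whole class 75 of 88 were CpG-poor, 62 of 88 started over 10 kb from a coding start and 28 of 88 held the string. These distances count starts inside coding genes too, which were 1 of the 7 (Gm17059, inside Cbara1) and 25 of the 62. Gm14005, now Morrbid, an RNA known from short-lived myeloid cells where it restrains the cell-death gene Bcl2l11, had 2 TGFβ-only peaks and no vehicle peak nearby. The first covered the start and was 649 bp wide (score 1000), and the second was 293 bp wide and began 937 bp downstream (score 596). The nearest vehicle peak was 32767 bp away from the first.

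Gm11476 had a TGFβ-only peak of 1139 bp, the widest of this class, from 825 bp upstream to 313 bp downstream of its start (chr2:167377989-167379127, score 1000). Its nearest coding start, 15119 bp away, belongs to Snai1, a repressor of epithelial genes that TGFβ is known to induce. Gm15271 had a TGFβ-only peak of 540 bp over its start (chr10:24166940-24167479, score 1000) and a vehicle-only peak of 352 bp further upstream (chr10:24165955-24166306, score 606), 634 bp apart. Its nearest coding start was that of Ctgf, a secreted matrix-associated protein and a well-known TGFβ target, at 147952 bp. No link between these lncRNAs and their neighbours was measured.

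The other 5 of the 8 were at Gm13293, Gm17059, Gm11216, 9930038B18Rik and 2900052L18Rik, with scores of 1000, 1000, 1000, 987 and 978, and held no AP-1 string in the 200 bp at the midpoint. The Gm13293 peak was only 93 bp wide and lay just 166 bp from a vehicle peak. Gm11216 had its nearest coding start at Tnc, a matrix protein, 54807 bp away. The 2900052L18Rik peak was the CpG-rich one, and its lncRNA starts 1362 bp from the coding start of Bahcc1, with the pair of genes running apart from each other.

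**Figure D3:**
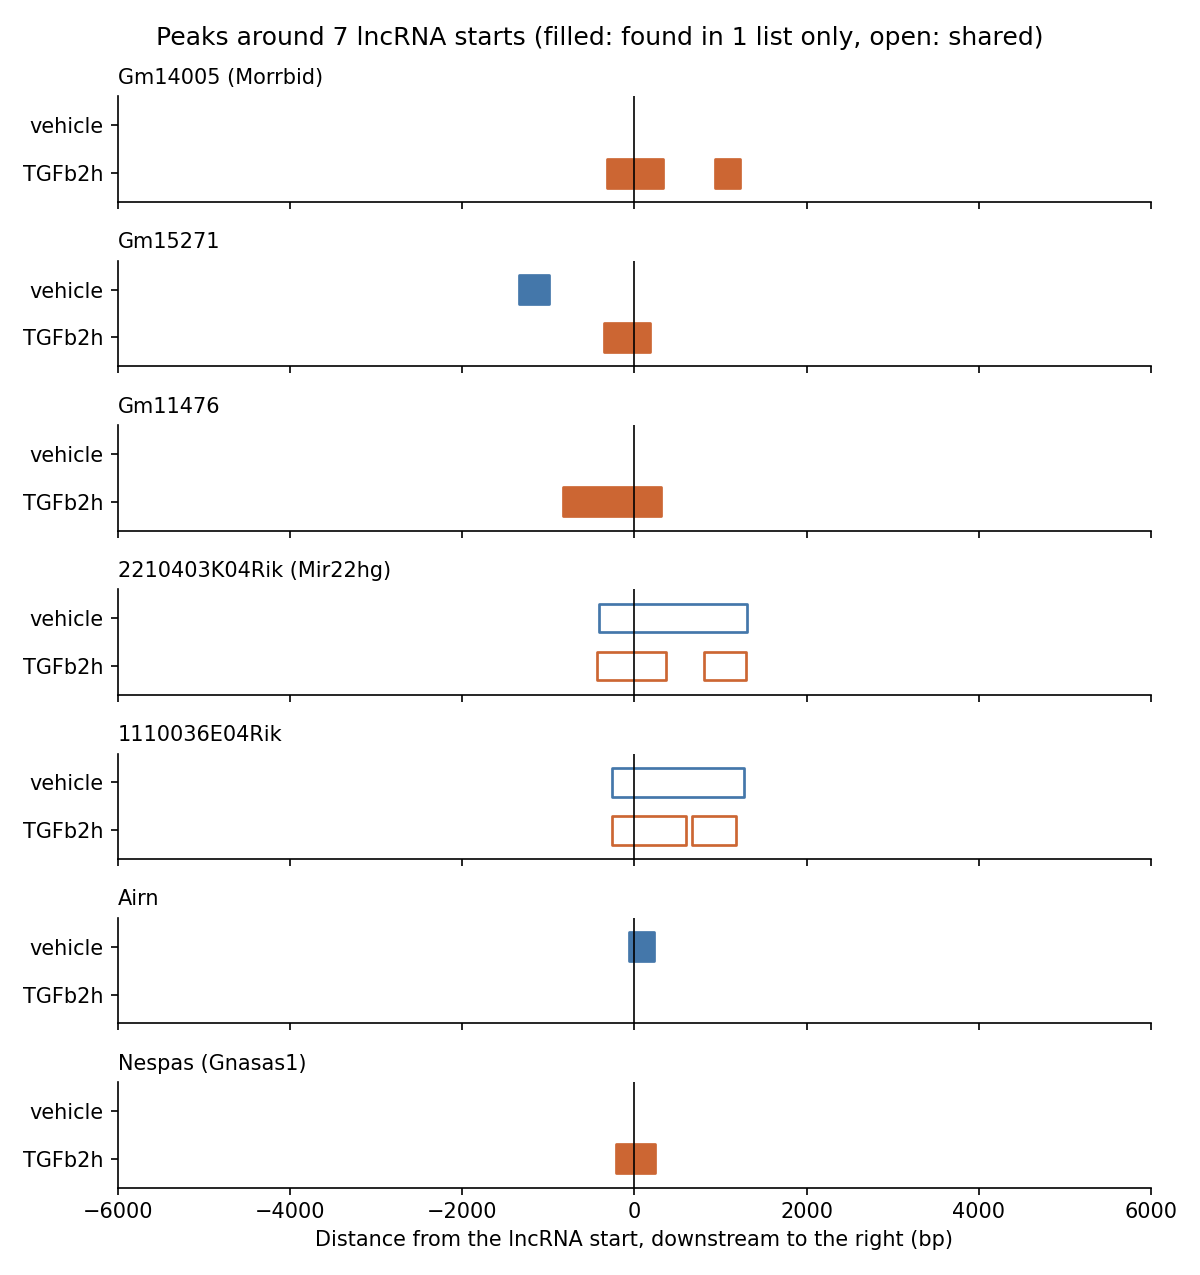
Peaks of both lists around the starts of 7 lncRNA genes, with the distance from the lncRNA start on the x axis (bp, downstream to the right) and 1 row for each list. Bars span the peaks, filled where the peak was found in 1 list only and open where it was shared. Gm14005 and Gm11476 have TGFβ 2 h peaks alone (649 and 1139 bp over the start), Gm15271 has a different peak in each list, and at 2210403K04Rik and 1110036E04Rik 1 vehicle peak faces 2 TGFβ 2 h peaks.

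Of the 8 vehicle-only members with the highest score, 4 were CpG-rich, beside 13 of 45 in the whole class (28.9%), 5 had their lncRNA start over 10 kb from a coding start, beside 24 of 45, and none held an AP-1 string in the 200 bp at the midpoint, although the Gm11291 peak held TGAGTCA 145 bp from its midpoint. Both at the ceiling were at Gm11292, which starts 8944 bp from the histone gene Hist1h2ah (418 bp, chr13:22118293-22118710), and at 9530027J09Rik (1036 bp, chrX:45637734-45638769). The Gm11291 peak lay on the same stretch of chromosome 13 with a score of 892. Snhg20 (2810008D09Rik), a small nucleolar RNA host gene, had a vehicle-only peak of 674 bp over its start (chr11:116937700-116938373, score 895), with the nearest TGFβ 2 h peak 3784 bp away. The others were Gm16120 (908), Gm15261 (882), E130102H24Rik (854) and Gm12050 (841), and the Gm12050 peak lay only 245 bp from a TGFβ 2 h peak.

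A listed TGFβ, AP-1 or epithelial-mesenchymal gene was the nearest coding gene of 8 lncRNA genes with members. Of these, 5 had shared peaks alone and 3 (Gm11476, Gm15271 and Gm12708) had a TGFβ-only peak, so that 3 of 9 TGFβ 2 h peaks were TGFβ-only (33.3%), near the 33.7% of the whole list. D730003I15Rik, with Atf3 as the nearest coding gene, Gm17721, with Klf10, Pvt1, with Myc, and Gm16197, with Cdkn1a, each had 1 shared peak in each list. 1110036E04Rik, with Smad6, an inhibitor of SMAD signalling, had a vehicle peak of 1531 bp that faced TGFβ 2 h peaks of 851 and 505 bp. Gm12708, whose nearest coding start is that of Jun at 141091 bp, had a TGFβ-only peak of 192 bp over its start with a score of 598.

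Shared peaks at lncRNA starts were mostly narrower in the TGFβ 2 h list. Over 196 one-to-one pairs the median ratio of TGFβ 2 h to vehicle width was 0.879, and 147 pairs (75.0%, interval 68.5 to 80.5%) were narrower. The same held across the lists, with a median ratio of 0.906 over all 13978 pairs, 0.893 at protein-coding starts and 0.932 at no annotated start. Among lncRNA starts the median was 0.844 in 91 CpG-poor and 0.914 in 105 CpG-rich pairs, and 80.2% and 70.5% were narrower, with overlapping intervals. The lowest ratio, 0.0731, was at C030014I23Rik, where 1573 bp faced 115 bp. The highest, 2.50, was at Has2as, an RNA antisense to the hyaluronan synthase gene Has2, where 470 bp faced 1175 bp.

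In 92 of the 196 pairs the peak stood at the ceiling of its own list in both lists, and of these the 6 centred nearest to a start were at 5530601H04Rik, Gm11974 (Snhg15), Atp10d, Malat1, 4930471M09Rik and Gm11527, with the TGFβ 2 h peak midpoint within 18 bp of the start in each.

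**Figure D4:**
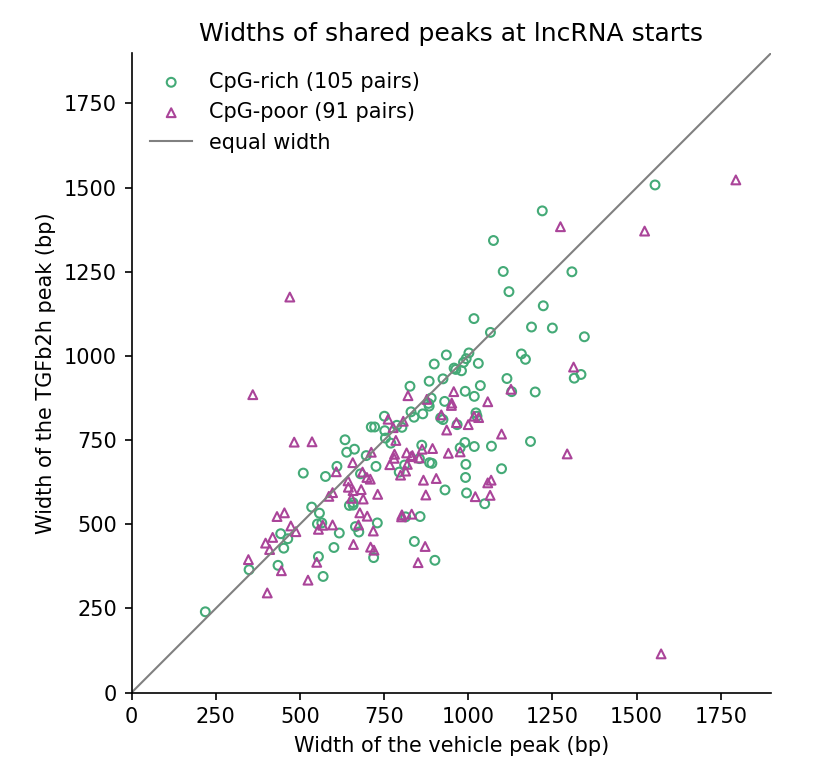
Width of the TGFβ 2 h peak (y axis, bp) against that of its vehicle partner (x axis, bp) for 196 one-to-one pairs at lncRNA starts, with green circles for CpG-rich and purple triangles for CpG-poor pairs. The line marks equal width, and 147 of 196 pairs lie below it.

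The AP-1 string was concentrated in TGFβ-only members. Within the 200 bp at the midpoint, on both strands, TGACTCA or TGAGTCA stood in 28 of 88 TGFβ-only peaks (31.8%, interval 23.0 to 42.1%). In windows of the same length placed 2000 bp towards lower chromosome coordinates, whatever the strand of the lncRNA, it stood in 3 of 88 (3.41%). It stood in 15 of 215 shared TGFβ 2 h peaks (6.98%), 13 of 207 shared vehicle peaks (6.28%) and 1 of 45 vehicle-only peaks (2.22%, interval 0.393 to 11.6%). That one vehicle-only peak was at Gm16065, now Tbx3os2. For comparison, the string stood in 9.83% of TGFβ-only peaks at protein-coding starts (interval 7.96 to 12.1%), in 27.2% of those at no annotated start (interval 26.1 to 28.3%) and in 25.2% of all TGFβ-only peaks. Over all peaks it stood in 8.97% of the vehicle list and 15.1% of the TGFβ 2 h list.

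The AP-1 share of TGFβ-only lncRNA start peaks thus met that of peaks at no annotated start and lay above that at protein-coding starts. CpG content differed as well, but within CpG-poor TGFβ-only peaks the intervals at lncRNA and protein-coding starts stayed separate. In CpG-poor TGFβ-only peaks the string stood in 26 of 75 at lncRNA starts (34.7%, interval 24.9 to 46.0%), 16.2% at protein-coding starts (interval 13.0 to 20.0%) and 27.6% at no annotated start (interval 26.6 to 28.8%). In CpG-rich TGFβ-only peaks it stood in 2 of 13 at lncRNA starts (interval 4.33 to 42.2%) and 2.42% at protein-coding starts (interval 1.28 to 4.53%). In CpG-poor shared TGFβ 2 h peaks it stood in 13 of 104 at lncRNA starts (12.5%, interval 7.45 to 20.2%), 9.28% at protein-coding starts (interval 7.69 to 11.2%) and 25.8% at no annotated start. The string stood in 13 of 38 TGFβ-only peaks that covered the lncRNA start (34.2%) and in 15 of 50 beside it (30.0%). With both lists first cut at their own median score, 6 of 40 TGFβ 2 h members left without a partner held the string (15.0%). These 40 included shared peaks whose partner was cut away. In lists cut to equal length, 21 of 55 TGFβ-only members held the string, as did 2 of 55 vehicle members left without a partner.

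The strings lay close to the midpoints. In TGFβ-only members there were 21.6 strings per 100 peaks per 100 bp within 50 bp of the midpoint, 12.5 from 50 to 100 bp, 8.52 from 100 to 200 bp and 2.84 from 400 to 500 bp. In shared TGFβ 2 h members the density was 3.72 within 50 bp and 2.09 from 400 to 500 bp, so the central rise was seen in the TGFβ-only class. The 28 peaks belonged to 27 genes, 10 of the peaks at lincRNA and 18 at processed_transcript starts, and 20 of the 28 lncRNA starts lay over 10 kb from a coding start, as did 62 of 88 in the whole class. After the 3 peaks at the ceiling, the highest scores were at AA645442 (919), Gm15500 (870), Gm15731 (865), Gm13073 (818) and Gm17433 (800).

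**Figure D5:**
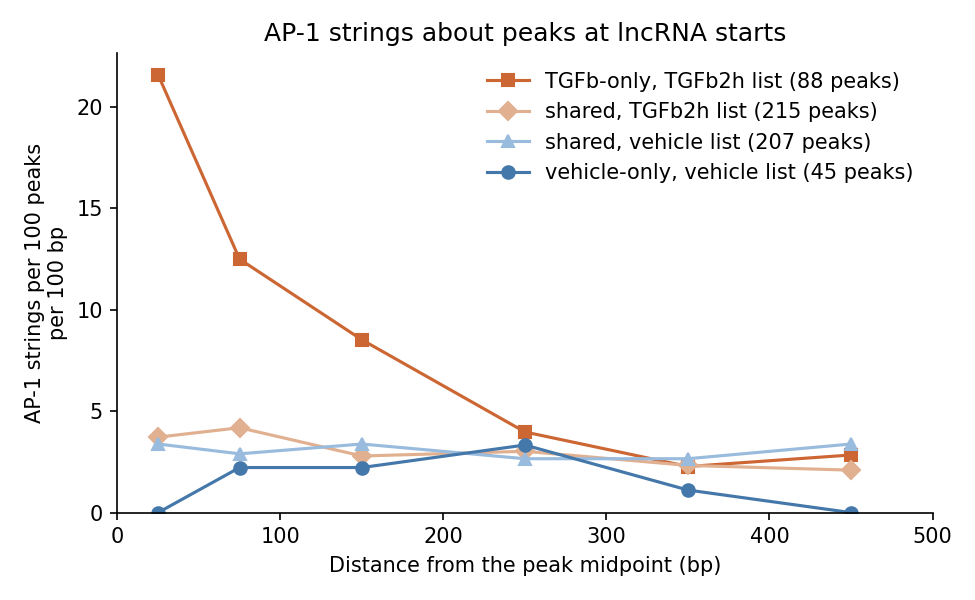
Number of AP-1 strings per 100 peaks per 100 bp (y axis) by distance from the peak midpoint (x axis, bp, points at the middle of each distance step) for lncRNA start peaks by class and list. TGFβ-only peaks (orange squares) start at 21.6 and meet the other classes from 200 bp outward, while shared and vehicle-only peaks stay between 0 and 4.19.

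Other strings searched in the same windows did not set the classes apart to this extent. The SMAD palindrome GTCTAGAC stood in 1 of 88 TGFβ-only and 0 of 45 vehicle-only members, a count of 0 that allows up to 6.67%. The E-box CAGGTG, which ZEB and SNAIL repressors can bind, stood in 13.6% of TGFβ-only, 17.8% of vehicle-only and 15.3% of shared TGFβ 2 h members. The TEAD string CATTCCA stood in 5.68%, 6.67% and 1.86% of them. The TATA string TATAAA stood in 6.82%, 4.44% and 4.65% of them. The CRE string TGACGTCA stood in 1 TGFβ-only, 1 vehicle-only and 4 shared TGFβ 2 h members. The promoter strings CCGGAAGT (ETS) and GCGCATGCG (NRF1) were rare in every class, with NRF1 in 4 of 215 shared and 0 of 88 TGFβ-only members. No match says only that these letters were not in the window.

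In 13 of the 317 nearest genes the peaks were of more than 1 class. In 8 of these a shared and a TGFβ-only peak stood at the same gene, in 3 a shared and a vehicle-only peak, and in 2, Gm15271 and D030055H07Rik, a vehicle-only and a TGFβ-only peak. At BC029722 a TGFβ-only peak of 479 bp with an AP-1 string lay 156 bp from the nearest vehicle peak. At Hectd2os (1500017E21Rik) a TGFβ-only peak lay over 1 start, 29012 bp from the nearest vehicle peak, while a shared peak lay near another start. Over all unshared members, 12 of 88 TGFβ-only peaks (13.6%) and 7 of 45 vehicle-only peaks (15.6%) were within 1000 bp of a peak of the other list, and 38.6% and 48.9% were within 10 kb.

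The share of TGFβ-only members with another TGFβ-only peak nearby was close to that of all TGFβ-only peaks. Within 50 kb of the midpoint, 51 of 88 (58.0%, interval 47.5 to 67.7%) had at least 1 other TGFβ-only peak, beside 55.3% of all 7611 TGFβ-only peaks. The share was 90 of 215 for shared TGFβ 2 h members (41.9%, interval 35.5 to 48.5%) and 18 of 45 for vehicle-only members (40.0%, interval 27.0 to 54.6%), and these intervals overlapped that of the TGFβ-only members. Of the other TGFβ 2 h peaks in these windows, 87 of 240 (36.2%) around TGFβ-only members and 143 of 595 (24.0%) around shared members were TGFβ-only, beside 38.9% around all TGFβ-only peaks, 28.7% around all shared peaks and 33.7% of the whole list. Vehicle-only peaks stood within 50 kb of 13 of 45 vehicle-only members (28.9%) and 61 of 207 shared vehicle members (29.5%). Members occurred on 20 chromosomes, and TGFβ-only members outnumbered vehicle-only members on 13, equalled them on 4 and were fewer on 3. Chromosome 2 alone held 23 of the 88 TGFβ-only and 3 of the 45 vehicle-only members, and without it there were 65 and 42, a ratio of 1.55, with the AP-1 string in 20 of the 65.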

How the data were processed

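DNaseI-seq peak lists of 1 vehicle and 1 TGFβ 2 h sample were used. Per the methods and the submitters' processing notes the authors aligned reads to mm9 and called peaks with MACS2 2.1.2, and options for DNaseI-seq are not stated. The deposited score is the authors' whole-number value, 540 to 1000, tied to the irreproducible discovery rate and read only within a list. The lists held 70449 and 68542 rows, and repeated intervals were collapsed to 1 peak. In each list 1 peak ended past a chromosome end. Read depth was not used, and no interval covers it. The study reports fewer mapped and filtered reads for the TGFβ 2 h DNaseI-seq library than for the vehicle one.

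Starts came from GENCODE M1 on NCBIM37 (mm9): 3845 lncRNA genes with 5669 transcripts, 1273 lincRNA and 2572 processed_transcript genes. The rule also named antisense, sense_intronic and sense_overlapping, which are transcript types but no gene types there. Protein-coding starts were those of protein-coding transcripts. The study used UCSC KnownGene. Current names were matched for 2043 lncRNA genes in a RefSeq gene table, which lists 26 of the 317 nearest genes as protein-coding today. Of members at these 26 genes, 19 were shared in each list, 4 were vehicle-only and 5 TGFβ-only.

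A peak was given to the lncRNA with the start nearest its midpoint. Distances to a coding start run from the lncRNA start. Pairs are peaks with a single overlapping partner, each way. Motifs were exact strings on both strands in 200 bp at the midpoint. A count of 0 is given with the share that 3 counts would make. Named were a list of known lncRNAs, the 8 highest-scoring members of each unshared class, 6 shared pairs with the highest summed score (all at the ceiling in both lists, so distance to the start decided), the pairs with extreme width ratios, genes with several or mixed members, and members whose nearest coding gene was on a list of TGFβ, AP-1 and epithelial-mesenchymal genes. Ties went by distance to the start. Of the known lncRNAs, 14 matched no gene under any name listed, 1 had another gene type and 1 entry of the list was no gene name. Members and lists were chosen with earlier results of these data known. Alternatives changed the unit counted, overlap, score, list length, windows, exclusion, gene types and motif window. The sequence of 1 further peak is not reported here. Overlap code was tested on simulated data. Python 3.11.15, pandas 2.3.3, numpy 2.4.6, scipy 1.17.1 and matplotlib 3.10.9 were used.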

Additional observations from a re-analysis of the deposited data

How the results depend on the processing

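Of 148 values under alternative settings, 111 stayed within the counting interval of the reported value or within 1.5 times the reported count, and 37 moved further. None was scored as reversed, but that could apply only to the ratios, by crossing 1. The CpG-rich ratio could not be so scored, since its reported value was 1.00. The median width ratio stayed between 0.874 and 0.893, and the ratio of TGFβ-only to vehicle-only members was above 1 in 15 of 16 settings, the exception being lists of equal length. The CpG-rich ratio ran from 0.571 to 1.35 and was above 1 in 1 of 10 settings. With rows in place of distinct intervals there were 975 vehicle and 946 TGFβ 2 h members, with unshared shares of 12.2% and 20.2%. Peaks in the upper part of each list, from its median score up, gave 132 and 148 members and a share of genes with a peak of 5.89%. The AP-1 share was then 15.0% in TGFβ 2 h members without a partner. After this cut and that to equal length, classes were called anew, and peaks whose partner was cut away counted as unshared. Lists cut to equal length gave a TGFβ-only share of 21.4%, a ratio of 1.00 and a CpG-poor ratio of 1.15, where fewer TGFβ 2 h peaks entered. Windows of 500 and 2000 bp about the start gave gene shares of 9.82% and 13.1%. With no exclusion near coding starts there were 922 and 971 members, unshared shares of 10.1% and 11.9%, a ratio of 1.25 and a gene share of 25.8%, because peaks of coding promoters entered. With processed_transcript genes left out, which is the same as lincRNA genes only, there were 145 and 157 members, a TGFβ-only share of 17.8%, a ratio of 1.33, a CpG-poor ratio of 1.47 and a gene share of 21.6%. The AP-1 share of TGFβ-only members was 43.2% over whole peaks, where it was 8.89% of vehicle-only members (4 of 45), and 18.2% in 100 bp, where 0% of vehicle-only members held it (0 of 45). Asking that the peak cover the start, an alternative chosen after seeing the data like the CpG ratios and the removal of chromosome 2, gave 198 TGFβ 2 h members, unshared shares of 13.5% and 19.2% and a gene share of 8.06%. Where no construction is named, the cause was not tested.

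No paired analysis was possible because a single list stands for either condition. Read depth per list was not used, and a class gives where a peak was called, not its signal. A planned share of repeat-masked bases was not run, since the genome sequence used carries no repeat mask.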
